A study of Oreochromis niloticus with 18 samples.

Results

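USP40, ANAPC11 and SQSTM1 are 3 genes of protein breakdown through ubiquitin, and each is represented here by 1 transcript out of the 26763 that were quantified in tilapia (Oreochromis niloticus). The transcripts are ENSONIT00000001666 (USP40), ENSONIT00000004192 (ANAPC11) and ENSONIT00000000125 (SQSTM1), followed through all 18 libraries. The study picked each of them in a single tissue for a follow-up measurement, cerebellum for USP40, thalamus-pituitary for ANAPC11 and liver for SQSTM1. That follow-up was RT-qPCR in separate groups of fish, which are not among these libraries. The authors describe its outcome as congruent with the sequencing for these 3 genes. They picked the genes by the size of the hormone response in these same libraries, and they also took their tissue and hormone specificity into account. Values in that tissue are therefore a description without a test for the gene concerned, and tests were kept to the other tissues, whose values may have had some weight in the choice as well.

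Juvenile fish labelled as 4 months old were immersed in tank water holding T2 (a diiodothyronine) or T3 (triiodothyronine), each at 25 nM and for 12 h, and untreated fish served as controls. RNA was sequenced from the cerebellum, the thalamus with the pituitary, and the liver, in 2 libraries per group and 9 groups. Each brain library pooled 4 fish and each liver library came from 1 fish, so that the spread between liver libraries is that between individuals and the spread between brain libraries is that between pools. By the fish numbers in the study's methods, both brain tissues of a treatment appear to come from the same fish, and the livers may as well. Fits over a pair of tissues treat these libraries as independent. The labels give neither strain nor sex.

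Ubiquitin is a small protein that is attached to other proteins by a chain of activating, conjugating and ligating enzymes. Tagged proteins are mostly broken down by the proteasome, while larger cargo is taken up into autophagosomes and degraded in lysosomes. In mammals USP40 is a member of the ubiquitin-specific peptidases, which take ubiquitin off again. ANAPC11 is the RING subunit of the anaphase-promoting complex, a ubiquitin ligase that ends mitosis and is also active in neurons that no longer divide. SQSTM1, or p62, is a cargo receptor that binds ubiquitin chains on one side and LC3 on the autophagosome on the other, and it is itself degraded with its cargo.

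All 3 transcripts were measured close to the detection limit. Counts in this text are rounded effective counts, which are adjusted estimates and not numbers of sequenced fragments. USP40 had 129 counts in all libraries together, ANAPC11 had 288 and SQSTM1 had 376, whereas library totals ranged from 1568851 to 6585242 with a median of 4915861. A library with no more than 3 counts was regarded as at the floor. USP40 was at the floor in 9 of 18 libraries and at 0 in 7 of them. ANAPC11 was at the floor in 10 libraries and at 0 in 3, and SQSTM1 was at the floor in 4 and at 0 in 1. Levels are given below as counts and as CPM, which are counts divided by library size, after trimmed-mean (TMM) scaling over all 18 libraries, on which a single count stood for 0.118 CPM in the deepest brain library and for 1.33 CPM in the shallower liver control. Transcript lengths were not used here, so a level is only compared with other levels of the same transcript. The exception is a rank by mean log2 CPM, given with the spread between libraries, which ranks counts and not abundance. In bulk tissue, fewer cells of a type and less RNA per cell cannot be told apart.

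Marker sums told the liver from the brain libraries, although not every listed transcript did. The summed level of 12 liver transcripts (fibrinogens, APOH, HPX, complement and F9) lay between 47517.9 and 181418 CPM in the liver and between 16.0 and 38.7 CPM in the brain libraries. Among them, 1 of the FGA transcripts was at 0 in all 12 brain libraries. The APOH transcript ENSONIT00000008168 was at 0 in 5 of 6 liver libraries and in 4 of 6 in each brain tissue. The sum of 7 neuronal transcripts (SNAP25, GAP43, MAP2, MAPT and CNTN2) lay between 1125 and 2591 CPM in the brain and between 1.41 and 18.6 CPM in the liver, where GAP43 was at 0 in all 6 libraries. The SNAP25 transcript ENSONIT00000001609 was at 0 in none of them. Glial transcripts separated the tissues less, with sums of 507 to 1111 CPM in the liver and 1153 to 2033 CPM in the brain. Exocrine pancreas transcripts, which occur in the fish liver where pancreas tissue lies within it, summed to between 35209.5 and 228099 CPM in the liver. None of the 27 planned tests of a member, 18 of which could be fitted after the filter on low counts, passed an adjusted p of 0.05 with edgeR's quasi-likelihood test. An unadjusted p under 0.05 was found in 6 of the 18. Within a single brain tissue, between 4.96% and 10.8% of all transcripts tested had such a p, depending on the contrast. That share was not computed for the fits over a pair of tissues. The 18 tests share libraries, and in some of them a member could pass the filter only through groups in which it was high, so 6 of 18 is not read as an excess. None of the 18 passed with DESeq2, where 7 had no adjusted p. Of the 9 hormone contrasts among them, 2 passed with edgeR's exact test.

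**Figure D1:**
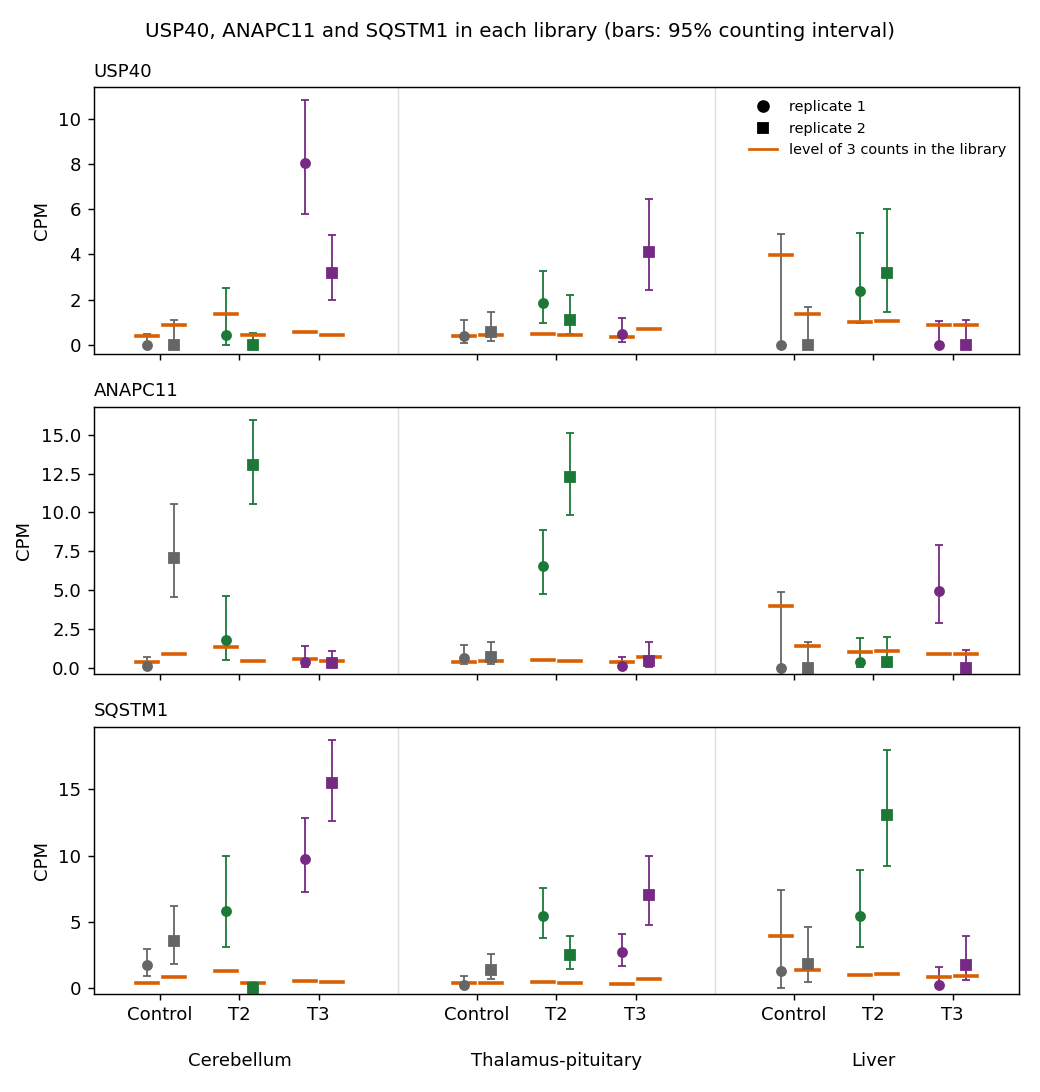
Level of USP40, ANAPC11 and SQSTM1 (CPM, vertical axis) in every library, by tissue and treatment. Circles are replicate 1 and squares replicate 2, bars give the 95% Poisson interval of the count, and orange ticks mark the level that 3 counts would have in that library. USP40 stands above the ticks with T3 in the cerebellum (8.02 and 3.18 CPM), and ANAPC11 reaches its highest levels in replicate 2 of T2 in both brain tissues (13.0 and 12.3 CPM).

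USP40 in the cerebellum, the tissue for which it was picked, was detected almost only with T3. Both controls had 0 counts, while T2 had 1 and 0 and T3 had 42 and 21. The T3 levels were 8.02 and 3.18 CPM. Both T3 libraries thus lay above all 4 others, as 21.5% of transcripts tested did against the controls and 18.4% did against T2, and the libraries within T3 differed 2.52-fold. The T3 mean of 5.60 CPM was at least 6.33-fold higher than the controls, taking as the floor 3 counts in the shallower control library (0.885 CPM), and the lower T3 library alone was 3.59-fold above that floor. T2 and the control were both at or under the floor, so no fold is given between them. Against T2, the summed counts with T3 were 49.8-fold higher, a ratio that rests on 1 count with T2.

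In the thalamus-pituitary, where USP40 could be tested, it was present at a few counts in every library. The controls had 3 and 4 counts (0.376 and 0.561 CPM), T2 had 12 and 8 (1.87 and 1.11 CPM), and T3 had 4 and 18 (0.473 and 4.09 CPM). Both T2 libraries lay above both controls, as was the case for 18.3% of the 16788 transcripts tested there, while the T3 libraries differed 8.65-fold from each other and overlapped the controls. The summed counts with T2 exceeded those of the controls 3.18-fold (95% counting interval 1.29 to 8.89) and those with T3 did so 3.69-fold (1.52 to 10.2). These intervals treat the rounded values as counted reads and cover counting error at most. Neither contrast passed the filter on low counts, and without that filter the adjusted p was 0.892 for T2 and 0.721 for T3 (edgeR quasi-likelihood). T2 and T3 differed by -0.54 ± 1.05 (log2 fold change ± SE, n = 2 and 2, adjusted p = 0.967 in edgeR), and leaving out the second T3 library turned the sign.

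In the liver, USP40 counts were found with T2 and in no other group. T2 had 7 and 9 counts (2.39 and 3.17 CPM), and the other 4 libraries were at 0. The T3 libraries were deep enough to set a floor, and the T2 mean of 2.78 CPM was at least 3.10-fold higher than 3 counts in the shallower of them (0.899 CPM). The controls did not allow the same statement. The shallower control library would have needed 3.98 CPM to reach 3 counts, which is more than the T2 level, so the shallower control gave no bound above 1, whereas 3 counts in the deeper control stood for 1.36 CPM, below both T2 libraries. On library totals without TMM scaling, the bound against the shallower control came to 1.17-fold. Without the filter, edgeR's quasi-likelihood test gave p = 0.0282 (adjusted p = 0.139) against the controls and an adjusted p of 0.620 against T3, and its exact test gave p = 0.0122 (adjusted p = 0.0771) and an adjusted p of 0.115. In the liver, both T2 libraries lay above both controls in 30.4% of the transcripts tested.

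Over the thalamus-pituitary and liver together (12 libraries, with tissue as a term), USP40 was higher by 3.22 ± 1.30 on the log2 scale with T2. The unadjusted p was 0.0290 and the adjusted p 0.267 (edgeR). All 4 T2 libraries lay above all 4 controls, of which those of the liver were at 0 counts. Within a single tissue, both T2 libraries lay above both controls in 18.3% (thalamus-pituitary) and 30.4% (liver) of transcripts. With controls of 4 counts or fewer, USP40 could pass the filter in this fit only through hormone libraries. With T3 the difference was 1.67 ± 1.22 (adjusted p = 0.583), and it turned to -0.47 without the second T3 library of the thalamus-pituitary. Of the 18493 transcripts in this fit, 1 (0.00541%) passed for T2 and none (0%) for T3. The 2 tissues themselves differed by 1.39 ± 1.07 (adjusted p = 0.250), in a fit in which 76.7% of transcripts passed. On library totals alone this difference was 2.71 with an adjusted p of 0.0323, so that its call depended on the scaling between tissues. By its median over 6 libraries, USP40 stood at 0.838 CPM in the thalamus-pituitary, 0.224 CPM in the cerebellum and 0 CPM in the liver, and the ranges of the 3 tissues overlapped.

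ANAPC11 in the thalamus-pituitary, the tissue for which it was picked, was high with T2 in both libraries. Its counts were 5 and 5 in control libraries, 42 and 88 after T2, and 1 and 2 after T3. In CPM these were 0.626 and 0.702, then 6.55 and 12.3, then 0.118 and 0.454. The T2 libraries lay above both controls and both controls lay above the T3 libraries, which were at the floor. T2 exceeded both controls in 18.3% of all transcripts tested there and both T3 libraries in 19.4%, and both T3 libraries were below both controls in 22.4%. The fitted difference between T2 and control was 3.81 ± 0.49 on the log2 scale, the summed counts were 14.5-fold higher (counting interval 7.61 to 30.9), and against T3 they were 41.0-fold higher.

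In the cerebellum the pools of one group did not agree on the level of ANAPC11. The controls had 1 and 24 counts (0.127 and 7.08 CPM), T2 had 4 and 93 (1.79 and 13.0 CPM), and T3 had 2 and 2 (0.382 and 0.303 CPM). The controls differed 55.9-fold and the T2 libraries 7.27-fold from each other, and replicate 2 was the higher library in both groups. Control and T2 overlapped, with a difference of 1.33 ± 1.39 (log2, n = 2 and 2, adjusted p = 0.989 in edgeR), and the sign turned to -0.90 without the second T2 library. Here 0% of the 15271 transcripts tested passed. Against T3, both T2 libraries were higher, as in 19.5% of transcripts, by 4.45 ± 1.05 on the log2 scale. In edgeR's quasi-likelihood test the unadjusted p was 0.00508 and the adjusted p 0.673. An unadjusted p under 0.05 was found in 6.24% of transcripts, and the share under 0.00508 was not computed. Of 15680 transcripts, 0.0128% passed in this contrast. edgeR's exact test gave an adjusted p of 0.0186 for the same contrast, and it called 0.733% of transcripts, and without the filter the quasi-likelihood test gave 0.0138 and called 0.468%. With 2 counts in each T3 library, ANAPC11 could pass the filter in this contrast only through T2, where 1 library held 93 of the 97 counts. The contrast of T3 with control had too few counts for the filter (4 against 25 in all), and both T3 libraries lay between the 2 controls.

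In the liver ANAPC11 was above the floor of 3 counts in 1 library and at 0 in 3 of 6. The first T3 library had 17 counts (4.94 CPM) while the second had 0, both controls had 0, and the T2 libraries had 1 each. Each liver library is 1 fish, so these counts come from a single animal. The mean of the T3 libraries lay below 3 counts in the shallower control (3.98 CPM), so no bound on the fold is given. Over the cerebellum and liver together the differences from control were 1.10 ± 1.50 with T2 (adjusted p = 0.799) and 0.50 ± 1.88 with T3 (adjusted p = 0.960) in edgeR, with 0.0169% of 17733 transcripts called for either hormone. Without that T3 liver library, the T3 difference was -3.09. The cerebellum was above the liver by 1.68 ± 1.60 (adjusted p = 0.355, 74.4% of transcripts called), and by 4.64 (adjusted p = 0.00546) once the T3 liver library with 17 counts was left out. Median levels were 1.09 CPM in the cerebellum, 0.664 CPM in the thalamus-pituitary and 0.171 CPM in the liver, with overlapping ranges.

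SQSTM1 in the liver, the tissue for which it was picked, was higher with T2 than in any other liver library. It had 1 and 4 counts in the controls (1.33 and 1.82 CPM), 16 and 37 with T2 (5.47 and 13.0 CPM), and 1 and 6 with T3 (0.290 and 1.80 CPM). The T2 libraries did not overlap the others, which held for 30.4% of transcripts against the controls and 15.1% against T3, and T3 overlapped the controls. The fitted difference from the controls was 2.63 ± 0.79 with T2 on the log2 scale, and the summed counts were 5.44-fold higher (counting interval 2.19 to 17.4). Against T3 the summed counts were 8.91-fold higher. T3 against control was not fitted, and the ratio of summed counts was 0.611 with an interval of 0.167 to 2.44, which spans no difference.

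In the cerebellum SQSTM1 was higher with T3 in both libraries. The controls had 14 and 12 counts (1.77 and 3.54 CPM), T2 had 13 and 0 (5.83 and 0 CPM), and T3 had 51 and 102 (9.74 and 15.4 CPM). Both T3 libraries lay above all 4 others, and 21.5% of the 15770 transcripts tested had both T3 libraries above both controls. The difference between T3 and control was 2.35 ± 0.46 on the log2 scale, with an unadjusted p of 0.00185 and an adjusted p of 0.328 in edgeR's quasi-likelihood test. An unadjusted p under 0.05 was found in 10.8% of transcripts there, and the share under 0.00185 was not computed. No transcript (0%) passed the adjusted threshold in that test. The same difference had an adjusted p of 0.00693 with edgeR's exact test, which called 1.17% of transcripts, and of 0.0125 without the filter on low counts, where 0.851% were called, so its call depended on the test. Left-out libraries moved it between 1.84 and 2.83.

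The second T2 library of the cerebellum had 0 SQSTM1 counts at a total of 5165818, whereas the first had 13 at 1568851. T2 and control differed by -0.04 ± 1.56 (adjusted p = 0.999 in edgeR), a value whose sign followed the library left out. T2 against T3 gave -2.69 ± 1.27 on the log2 scale, with an adjusted p of 0.805, and both T2 libraries lay below both T3 libraries, as in 18.4% of transcripts.

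In the thalamus-pituitary both hormones went with more SQSTM1 counts. The controls had 2 and 10 counts (0.250 and 1.40 CPM), T2 had 35 and 18 (5.46 and 2.51 CPM), and T3 had 23 and 31 (2.72 and 7.04 CPM). All 4 hormone libraries lay above both controls. Such a separation was found in 18.3% of transcripts for T2 and in 19% for T3. The differences were 2.27 ± 0.88 with T2 (unadjusted p = 0.0422, adjusted p = 0.807) and 2.55 ± 0.92 with T3 (unadjusted p = 0.0307, adjusted p = 0.532) in edgeR, against 0% and 0.00588% of transcripts called, and 6.16% and 8.84% with an unadjusted p under 0.05. The hormones did not differ from each other beyond the spread between libraries (-0.27 ± 0.62, adjusted p = 0.975, 0.0541% of transcripts called). These contrasts share their control or hormone libraries and are not independent of one another. With 2 and 10 counts in the controls, SQSTM1 could pass the filter against them only through hormone libraries, where it was high.

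Over both brain tissues, SQSTM1 was higher with T3 by 2.40 ± 0.86 on the log2 scale (12 libraries, unadjusted p = 0.0155, adjusted p = 0.187 in edgeR), where 0.938% of 18230 transcripts passed, and with T2 by 1.23 ± 0.91 (adjusted p = 0.749, 0.0329% passed). Left-out libraries gave between 2.05 and 2.77 for T3, with an adjusted p of 0.0603 at the lowest. The 12 libraries were treated as independent, although both brain tissues of a treatment appear to share fish. The response to T3 did not differ detectably between cerebellum and thalamus-pituitary (difference of -0.21 on the log2 scale, adjusted p = 1.00 in edgeR, 0% of transcripts called). The tissues differed by 0.76 ± 0.71 (adjusted p = 0.417, 48.8% passed), and by 1.22 with an adjusted p of 0.0381 without the T2 library of the cerebellum that was at 0. Median levels were 4.69 CPM in the cerebellum, 2.61 CPM in the thalamus-pituitary and 1.81 CPM in the liver, with overlapping ranges.

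**Figure D2:**
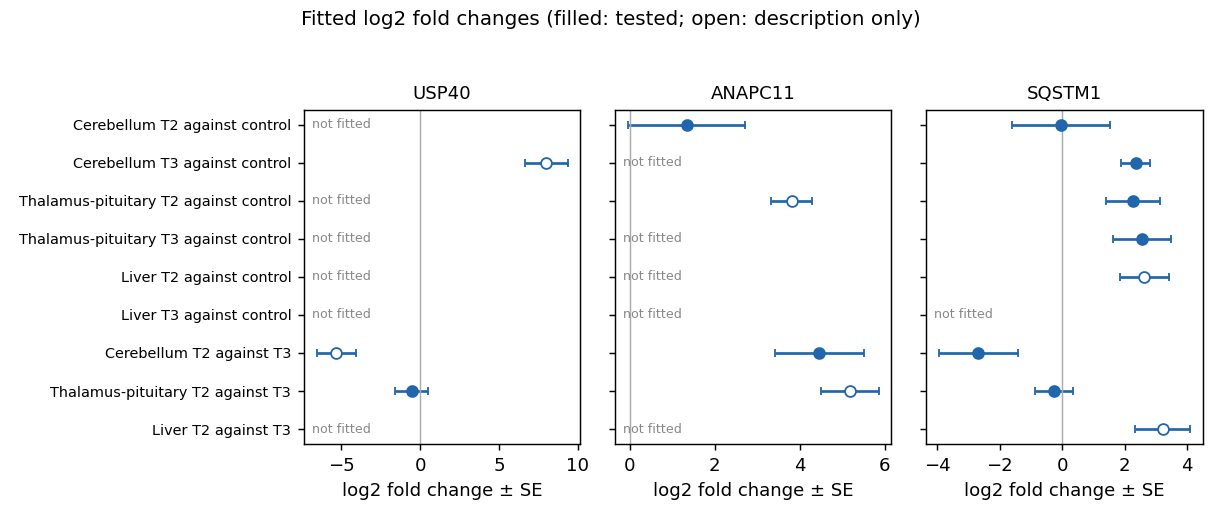
Log2 fold change with its standard error (horizontal axis, fitted by edgeR) for each hormone contrast of the 3 transcripts, 2 libraries against 2. Filled points were tested, open points belong to the tissue for which the gene was picked and were not, and contrasts marked as not fitted held too few counts. SQSTM1 lies between 2.27 and 2.63 in all 4 fitted contrasts with control other than T2 in the cerebellum (-0.04). The open USP40 point at 8.02 is set against controls at 0 counts and depends on the prior count, so that the bound of 6.33-fold applies to it instead.

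Levels of the cell type markers also differed between treatments, including in groups where USP40 and SQSTM1 overlapped the controls. In the cerebellum, where USP40 and SQSTM1 were higher with T3, the 7 neuronal transcripts summed to between 1319 and 1441 CPM with T3 and between 1777 and 2591 CPM in the controls, and the 5 red cell transcripts (globins and ALAS2) to between 2054 and 2413 CPM against 3960 and 4981 CPM. The 4 glial transcripts (SLC1A2, SLC1A3, FABP7 and CNP) summed to between 1153 and 1286 CPM with T3 against 1517 and 1656 CPM there. At most 1 of the 7 neuronal transcripts and none of the red cell or glial transcripts was at 0 in those libraries. With T2 in the cerebellum, where USP40 and SQSTM1 overlapped the controls, the red cell sum was between 2470 and 2638 CPM. The glial sum with T2 there was between 1294 and 1317 CPM, and the neuronal sum was between 1883 and 2461 CPM. In the thalamus-pituitary the neuronal sum was between 1419 and 1596 CPM with T2, 1125 and 1187 CPM with T3, and 1638 and 2067 CPM in the controls. The red cell sum there was between 2029.6 and 2560.2 CPM with T2, 1898 and 1961 CPM with T3, and 2908 and 5162 CPM in the controls. Glial transcripts there summed to between 1785 and 1794 CPM with T2, 1684 and 1840 CPM with T3, and 1840 and 2033 CPM in the controls. In the liver the 12 liver transcripts summed to between 47517.9 and 59019.9 CPM with T2 against 163152 and 181418 CPM in the controls, and the 9 exocrine pancreas transcripts to between 35209.5 and 40725 CPM against 90217 and 228099 CPM. The red cell sum in the liver was between 6231 and 7016 CPM with T2 against 14112 and 23113 CPM. These sums were also low in the liver with T3, where USP40 and SQSTM1 overlapped the controls. There the liver transcripts summed to between 75878 and 77375 CPM, those of the pancreas to between 51161 and 59773 CPM, and those of red cells to between 5697 and 7596 CPM. None of the pancreas transcripts was at 0 in the liver. The part of these shifts in the values of the 3 transcripts was not tested.

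The libraries of a group differed more for these 3 transcripts than for most. The coefficient of biological variation over the 9 groups was 66.5% for USP40, 97.4% for ANAPC11 and 78.7% for SQSTM1, against a median of 20.4% over 19221 transcripts. Lower values than these were found in 88.5%, 94.3% and 91.3% of transcripts. The mean log2 CPM of the 3 was above that of only 10.9%, 20.4% and 26.1% of the same transcripts. Their spread was not compared with that of transcripts with similar counts. The largest gap between the libraries of one group was 2.36 on the log2 scale for USP40 (T3 in the thalamus-pituitary), 3.82 for ANAPC11 (control cerebellum) and 3.96 for SQSTM1 (T2 in the cerebellum).

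USP40 and SQSTM1 followed each other across libraries, while ANAPC11 followed neither. The correlation of log2 CPM over the 18 libraries was 0.76 between USP40 and SQSTM1 (Spearman 0.78), -0.11 between USP40 and ANAPC11, and -0.28 between ANAPC11 and SQSTM1. Within tissues, the first was 0.74 (cerebellum), 0.83 (thalamus-pituitary) and 0.89 (liver), over 6 libraries each. The correlations of ANAPC11 changed sign between tissues. With USP40 they were -0.57 (cerebellum), 0.24 (thalamus-pituitary) and -0.01 (liver), and with SQSTM1 -0.66, 0.22 and -0.41 in the same order. In all 3 tissues both transcripts were highest in the same group, T3 in both brain tissues and T2 in the liver, by their means. USP40 was picked for its cerebellar values with T3 and SQSTM1 for its liver values with T2. The agreement and the correlations in those 2 tissues therefore draw on the choice. In the thalamus-pituitary the SQSTM1 sums were 53 counts with T2 and 54 with T3, and 1 T3 library held 18 of the 22 USP40 counts. These points share libraries, depth and hormone groups, and many are at or near the floor, so the values are descriptive.

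Of the 15 transcripts with the most similar pattern, 5 for each member, only MAPK6 had a symbol in the identifier list used here. The 5 most alike USP40 had correlations of log2 CPM between 0.77 and 0.84 over 18 libraries, and 1 of them was MAPK6, an atypical MAP kinase, at 0.79. MAPK6 had 33 and 60 counts with T3 in the cerebellum against 0 and 2 in the controls, 6 and 3 counts with T2 in the liver, and 0 in all other liver libraries. It departed from USP40 elsewhere, with 25 counts in the second thalamus-pituitary control and 8 in the first cerebellar T2 library, where USP40 had 4 and 1. The transcript most like ANAPC11, ENSONIT00000024945 with a correlation of 0.88, had 15 counts in the second cerebellar control, 61 in the second T2 library, and 16 in the first T3 liver library, which was its only liver library above 0. All 15 were chosen for their likeness over these same libraries. In the first cerebellar T2 library ENSONIT00000024945 had 8 counts. Likeness was weaker for T2 in the thalamus-pituitary. Untreated pools there held 26 and 19 counts of this transcript (3.26 and 2.67 CPM), while T2 pools held 21 and 35 (3.28 and 4.87 CPM). The change of ANAPC11 there, from 5 and 5 counts to 42 and 88, was much larger. Pools treated with T3 were low for both transcripts, at 2 and 0 counts here and at 1 and 2 for ANAPC11. For SQSTM1 the closest was ENSONIT00000005758 (0.81), with 17 and 41 counts with T2 in the liver and 2 or fewer in the other liver libraries. In the cerebellum, unlike SQSTM1, it was highest in the first T2 library (8.97 CPM), above both T3 libraries (3.06 and 4.09 CPM). With Spearman in place of Pearson, 2, 2 and 3 of each 5 remained for USP40, ANAPC11 and SQSTM1.

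The wider ubiquitin and autophagy pathway was examined next, in lists of named transcripts. All listed symbols come from genes that the study had called in these samples, so that the lists are not independent evidence of a response. Apart from the 3 members, 6 lists held 111 transcripts of deubiquitinases, the anaphase-promoting complex, cullin ligases, other ligases and conjugating enzymes, the proteasome, and autophagy. In the brain none of the 104 to 109 that could be tested passed against the control in either tissue with either hormone in edgeR's quasi-likelihood test. With the exact test, cerebellar T3 samples gave 7 calls, where 1.17% of all transcripts were called. Thalamus-pituitary samples gave 2 with T2 and 7 with T3 (0.429% and 0.747% of all transcripts there). In the liver 74 of 101 passed with T2 (36 higher and 38 lower) and 66 of 101 with T3 (35 higher and 31 lower), where 21% of 10905 and 13.6% of 11556 transcripts passed overall. Between T2 and T3 in the liver 0 of 97 passed, and 0.0874% of all transcripts did. On library totals without TMM, all fold changes in the liver shifted upward by a median of 0.61 with T2 and 0.56 with T3 on the log2 scale, and the split over the lists became 44 higher and 14 lower with T2 and 44 higher and 6 lower with T3. Directions below are relative to the TMM scale.

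**Figure D3:**
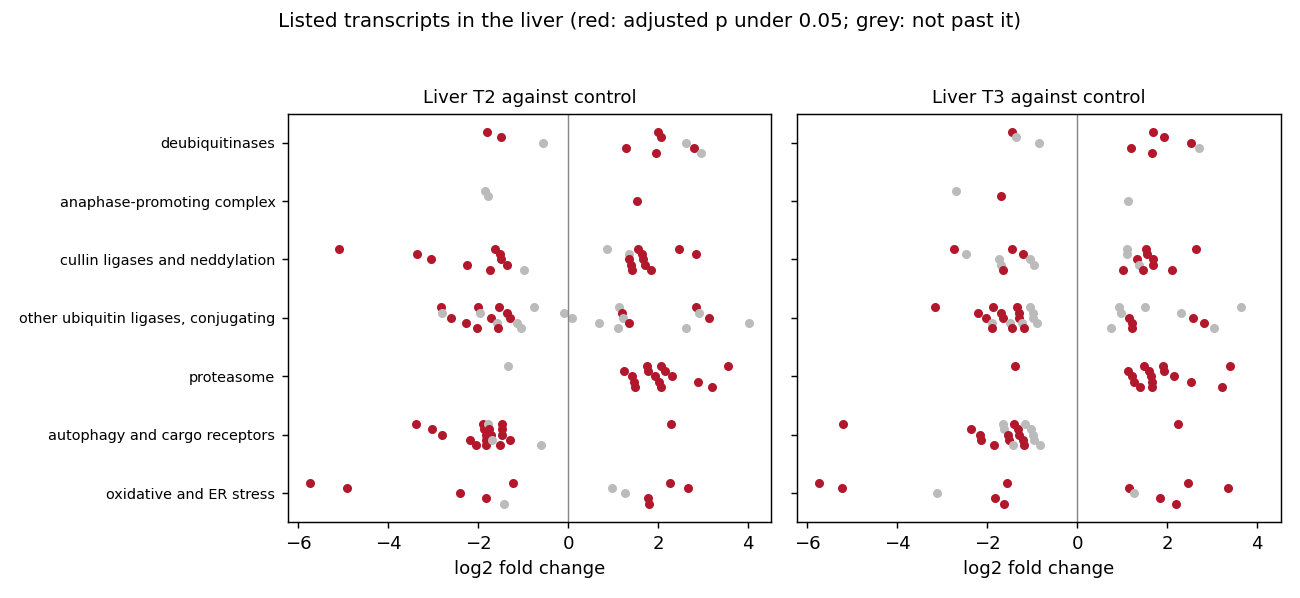
Log2 fold change against control in the liver (horizontal axis) of each tested transcript in 7 lists, with T2 on the left and T3 on the right. Each point is a transcript, red where the adjusted p was under 0.05 and grey where it was not, with the vertical offset only separating points. With T2, 15 of 16 proteasome transcripts lie to the right in red, and 17 of 21 autophagy transcripts lie to the left in red. All listed genes are among those that the study had called in these samples, and 21% of all transcripts tested passed with T2 and 13.6% with T3.

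Among deubiquitinases, the enzyme class of USP40, 5 of 10 rose and 2 fell in the liver with T2, and 5 of 9 rose and 1 fell with T3. Over all transcripts 1325 rose and 965 fell with T2, and 988 rose and 584 fell with T3. The median of the list with T2 was 1.98 on the log2 scale against 0.01 over all tested transcripts. USP14, which trims ubiquitin at the proteasome, had 25.2 and 28.6 CPM in control livers, then 165 and 169 CPM after T2 and 141 and 162 CPM after T3, a change of 2.79 ± 0.26 (adjusted p = 0.0101) and 2.52 ± 0.26 (adjusted p = 0.0129) in edgeR. USP5, which takes apart free ubiquitin chains, had 92.8 and 181 CPM in the controls, 470 and 476 CPM with T2 and 453 and 403 CPM with T3. USP10 rose by 1.99 with T2 and 1.67 with T3, UCHL3 by 2.06 and 1.93, and USP4 by 1.29 and 1.20 (adjusted p between 0.0128 and 0.0389). USP32 and ZRANB1 fell with T2 (-1.49 and -1.79), and OTUD5 fell with T3 (-1.45). The last 3 genes, and PSMG2 among the proteasome genes, were named after their values were seen. The list's 5 that rose with T2 became 2 without the first T2 library and 4 without the second, and the 5 with T3 became 1 without either T3 library. USP14 passed in all 4 fits with 1 library left out for both hormones and USP10 did so with T2, whereas USP4 passed in 1 of 4 with each hormone, and USP10, UCHL3 and USP5 passed in 2 of 4 with T3. USP8 was at 0 in all 6 liver libraries and at no more than 5.75 CPM in the brain.

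The partners of ANAPC11, except for a second FZR1 transcript, were well measured in the same libraries in which ANAPC11 was at the floor. CDC16, a scaffold subunit of the anaphase-promoting complex, had 13.3 and 19.1 CPM in the liver controls, 44.8 and 39.5 CPM with T2, and 34.3 and 36.3 CPM with T3. It rose with T2 (1.52 ± 0.31, adjusted p = 0.0282 in edgeR), and the T3 value of 1.13 ± 0.29 had an adjusted p of 0.0563. FZR1, the activator that keeps the complex on outside mitosis, had 91.5 and 104 CPM in the controls, 40.0 and 10.2 CPM with T2, and 18.9 and 40.5 CPM with T3 in the transcript ENSONIT00000002360, which fell with T3 by 1.69 (log2, adjusted p = 0.0471) but did not pass with T2 (adjusted p = 0.0915). A second FZR1 transcript, ENSONIT00000002361, lay between 0.354 and 7.64 CPM in the brain. In the liver it passed with neither T2 (-1.84, adjusted p = 0.0980 in edgeR) nor T3 (-2.70, adjusted p = 0.0625). RBX1, the RING subunit of cullin ligases and a relative of ANAPC11, rose by 1.41 ± 0.25 with T2 and 1.46 ± 0.26 with T3 (adjusted p = 0.0211 and 0.0272). In the brain libraries CDC16 stayed between 21.4 and 33.4 CPM, FZR1 (ENSONIT00000002360) between 11.8 and 23.3 CPM and RBX1 between 41.5 and 85.8 CPM, and none passed. These calls were lost when some single libraries were left out. Of 4 such fits, 1 still passed for CDC16 with T2, 1 for FZR1 with T3 (adjusted p up to 0.276), and 2 for RBX1 with either hormone.

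Proteasome transcripts rose nearly as a block in the liver. With T2, 15 of 16 rose and with T3, 15 rose and 1 fell (PSMG2, another assembly chaperone, -1.38), with medians of 1.97 and 1.65 on the log2 scale. Over all transcripts tested, 1325 of 10905 rose with T2 and 988 of 11556 with T3. The lid subunit PSMD8 rose by 3.20 ± 0.29 with T2 and 3.21 ± 0.27 with T3, the ubiquitin-binding base subunit PSMD2 by 2.88 ± 0.27 and 2.54 ± 0.26, and the assembly chaperone PSMG1 by 3.55 ± 0.32 and 3.41 ± 0.31 (adjusted p between 0.0101 and 0.0129 in edgeR). Without 1 T2 library, 8 or 9 of the 16 still passed, and without 1 T3 library 4 or 5 did. In the brain 0 of 16 passed in any contrast. CAND1, which exchanges the substrate receptors of cullin ligases, rose by 2.85 ± 0.28 with T2 and 2.63 ± 0.27 with T3. Among the other ligases and conjugating enzymes, 4 of 29 rose and 10 fell with T2, where UBE2N, which builds K63-type chains, rose by 3.13 ± 0.36 and RNF19A fell (-2.01 ± 0.31). On library totals alone the split of that list turned to 10 that rose and 4 that fell, and without the second T2 library it was 1 and 0.

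Autophagy transcripts in the liver fell with both hormones, with 1 exception among those that passed. With T2, 17 of 21 fell and 1 rose, with a median of -1.77, and with T3, 12 fell and 1 rose, with a median of -1.41. Over all transcripts tested, 965 of 10905 fell with T2 and 584 of 11556 with T3. The list was drawn from genes that the study had called in these samples, so a higher share is not independent evidence. Other cargo receptors were among them. TAX1BP1 had 545 and 425 CPM in the controls, 129 and 131 CPM with T2 and 145 and 188 CPM with T3, a change of -1.76 ± 0.31 and -1.53 ± 0.31 (adjusted p = 0.0209 and 0.0340 in edgeR). OPTN fell from 115 and 78.1 CPM to 18.1 and 28.9 CPM with T2, and NBR1 from 45.1 and 79.9 CPM to 16.8 and 23.6 CPM (adjusted p = 0.0305 and 0.0375). CALCOCO1 fell with T2 (-2.17 ± 0.44, adjusted p = 0.0275), and with T3 its adjusted p was 0.0594. NBR1 did not pass with T3 either (adjusted p = 0.0801 in edgeR). The LC3 genes, which encode the autophagosome protein that cargo receptors bind, fell with both hormones. MAP1LC3B went from 25.2 and 28.1 CPM to 3.08 and 1.41 CPM with T2 and 3.49 and 6.59 CPM with T3, and MAP1LC3A from 133 and 124 CPM to 34.5 and 49.4 CPM with T2.

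The number of autophagy transcripts that passed depended on the fit. The median of the list stayed below 0 in every alternative fit, at -1.12 with T2 and -0.83 with T3 on library totals, where 8 and 3 transcripts fell. These fits reuse the same libraries and genes that the study had called in them, so the unchanged direction is no further evidence. Most of the transcripts that fell no longer passed when 1 T2 or 1 T3 library was left out, which left 1 library in that group. The medians were then -1.73 and -1.76 with T2 and -1.27 and -1.51 with T3. Over 13 alternative fits with T2, MAP1LC3B lay between -4.02 and -2.74, MAP1LC3A between -1.73 and -0.84, and NBR1 between -2.34 and -0.87. TAX1BP1 lay between -2.02 and -1.12, OPTN between -2.25 and -1.27, and CALCOCO1 between -2.81 and -1.57. The 1 transcript that rose was VMP1, a membrane protein of early autophagosomes (2.29 ± 0.38 with T2 and 2.24 ± 0.32 with T3). The liver and pancreas marker sums given above also fell between the controls and the hormone groups, and their part in these lists was not tested. In the brain TAX1BP1 lay between 139 and 205 CPM, NBR1 between 78.5 and 126 CPM and OPTN between 10.5 and 16.7 CPM, and none passed in either tissue.

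**Figure D4:**
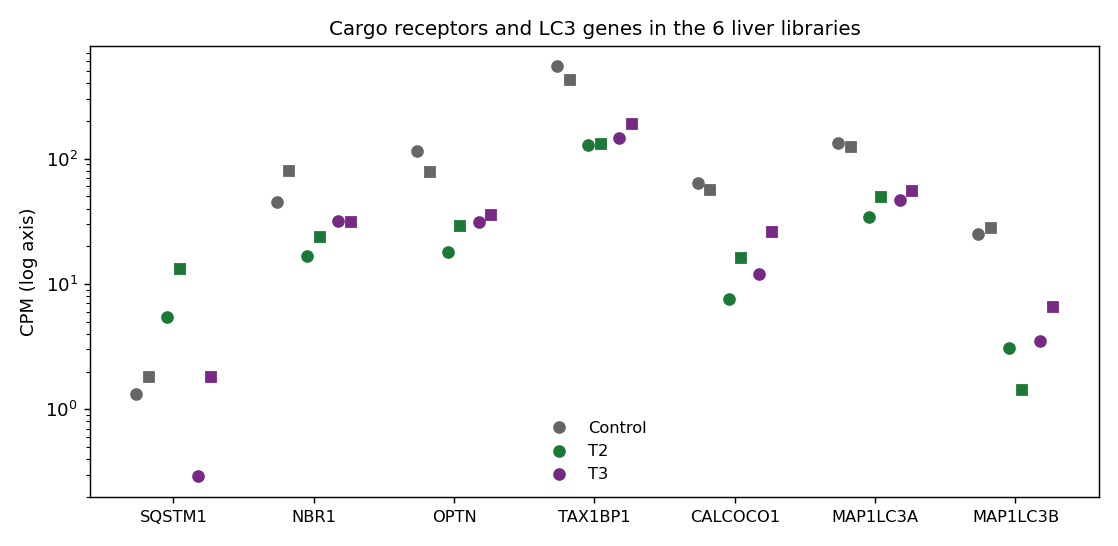
Levels of SQSTM1, 4 other cargo receptors and 2 LC3 genes in the 6 liver libraries (CPM on a log axis). Colours give the treatment, circles replicate 1 and squares replicate 2. SQSTM1 is higher with T2 (5.47 and 13.0 CPM) than in the controls (1.33 and 1.82 CPM), while the other 6 transcripts are lower with T2 than in both controls. Of all liver transcripts tested, 30.4% had both T2 libraries above both controls and 36.3% had both below. The SQSTM1 controls hold 1 and 4 counts, and the other 6 are among genes that the study had called in these samples. Levels of different transcripts are not comparable, as lengths were not used.

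A short list of oxidative and endoplasmic reticulum stress genes was set beside SQSTM1, which is a known target of the oxidative stress response in mammals. In the liver 4 of 12 rose and 5 fell with T2, and 5 rose and 5 fell with T3, where 21% and 13.6% of all transcripts passed. Between T2 and T3 in the liver 0 of 11 passed. The chaperones HYOU1 and DNAJB11 of the endoplasmic reticulum rose by 2.68 ± 0.35 and 1.80 ± 0.27 with T2 and by 3.34 ± 0.36 and 2.21 ± 0.27 with T3, and DNAJB9 rose with T3 by 2.47 ± 0.38. BACH1, a repressor of antioxidant genes, fell with T2 (-2.40 ± 0.38), and the stress factor DDIT3 fell with both hormones (-1.82 with either, adjusted p = 0.0173 and 0.0207 in edgeR). None of the 10 or 11 tested in the brain passed in any contrast.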

How the data were processed

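RNA from 18 libraries (9 groups of 2) was sequenced as paired ends. Per the study's methods, the authors aligned reads with Bowtie 1.1.2 to the Ensembl coding sequences of the Orenil1.0 tilapia assembly and estimated transcript abundance with eXpress. The deposited values are effective counts, an estimated count per transcript that the authors obtained from eXpress, which are not whole numbers and can split reads between similar transcripts. They were rounded. In addition, 6 tables of the authors' own edgeR comparisons (log2 fold change, log2 CPM, p-value and false discovery rate) were not used.

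Counts were tested in R 4.3.3 with edgeR 4.0.16 (filterByExpr with a smallest count of 10 and a smallest sum of 15, TMM scaling, quasi-likelihood test, Benjamini-Hochberg adjustment over all transcripts tested, threshold 0.05). Each hormone comparison was fitted on its 4 libraries, and comparisons over a pair of tissues on 12 libraries with tissue and treatment as terms. T2 and T3 share their controls. With 2 libraries against 2 an exact permutation test cannot go below p = 0.333, so none was used. Levels are TMM-scaled CPM over all 18 libraries. The TMM factors were between 1.38 and 1.51 in the brain and between 0.344 and 0.649 in the liver, so levels between brain and liver depend on this scaling. A prior count of 2 entered the log2 CPM on which correlations were computed.

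The floor was 3 counts in the shallower library of a group at 0. Other ratios compare summed counts with an exact conditional 95% interval. Intervals and floors treat rounded effective counts as if they were counted reads. How many fragments stand behind them is not known here, so the intervals may be too narrow. They cover counting error at most, since reads are not independent molecules. Nothing says whether the 2 brain pools were prepared apart, and p-values measure the spread between these libraries.

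Symbols for other transcripts came from 1622 pairs of identifier and symbol in the study's supplementary gene list, clone names and numbered open reading frames left out. The reference table matched no Ensembl identifier, so no sequences or coordinates are given. Members and lists were chosen with earlier results of these data known. In the lists, up to 4 transcripts of each list with the smallest adjusted p past the threshold in the liver could be named, and partners of the 3 members were named whatever their values. Alternatives were edgeR's exact test, DESeq2 1.42.0, no filter, other scalings, thinned counts, a replicate block, all 6 libraries of a tissue, and each library left out. The test code was checked on simulated counts.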

Additional observations from a re-analysis of the deposited data

How the results depend on the processing

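Among the tested values of the 3 transcripts, the sign turned without a left-out library only for SQSTM1 with T2 against control in the cerebellum, -0.04 on the log2 scale, which was 0.088 with DESeq2, 0.079 with edgeR's exact test and 0.068 with that test unfiltered. Calls were gained for ANAPC11 with T2 against T3 in the cerebellum, at 4.40 with the exact test, 4.41 with it unfiltered (adjusted p = 0.0324) and 4.45 without the filter (adjusted p = 0.0138), and for SQSTM1 with T3 against control there, at 2.34, 2.35 (adjusted p = 0.00941) and 2.36. USP40 between thalamus-pituitary and liver was 2.71 on library totals alone. The cause was not tested in any of these.

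Leaving out each library gave -0.90 to 5.75 for ANAPC11 and -7.01 to 1.18 for SQSTM1 with T2 in the cerebellum, -1.01 to 5.08 (T2) and -3.09 to 3.94 (T3) for ANAPC11 over cerebellum and liver, and -0.47 to 2.06 for USP40 with T3 over thalamus-pituitary and liver. T2 against T3 in the thalamus-pituitary ranged from -0.94 to 0.54 for SQSTM1 and from -1.46 to 1.62 for USP40. The tissue difference was 0.73 to 4.64 for ANAPC11 (cerebellum against liver) and 0.46 to 1.22 for SQSTM1 (cerebellum against thalamus-pituitary).

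Called list transcripts numbered 0 in all brain contrasts with control. They became 2 without the filter for T2 in the cerebellum, and for T3 there 7 with either exact test and 10 without the filter. Over all transcripts, 0.695% were called without the filter for T2 there. For T3 the shares were 1.17% with the exact test, 0.623% with it unfiltered and 0.851% without the filter. In the thalamus-pituitary T2 gave 2 with either exact test, and T3 gave 1 with DESeq2, 7 with the exact test, 6 with it unfiltered and 1 without the filter. Shares over all transcripts there were 0.429% and 0.201% for T2 with the exact test, filtered and unfiltered. For T3 they were 3.7% of the 1620 with an adjusted p in DESeq2, 0.747%, 0.407% and 0.0857%, in the same order. Left-out libraries gave 0 to 1 in the thalamus-pituitary. In the liver they gave 19 to 64 with T2 (19 without the first T2 library, 24 without the second) and 7 to 69 with T3 (7 without the first T3 library, 13 without the second).

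Replicate numbers are shared between groups, but nothing pairs the samples by number, and same-numbered libraries had correlations of their deviations from -0.21 to 0.16. With the replicate number as a block, 62 list transcripts (74 without it) passed with T2 in the liver and 31 (66 without it) with T3, and 0 of the 18 tests of the 3 transcripts passed. The crossed pairing, added after seeing the data for T2 against control in the cerebellum, gave 0.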
